A study of Sorghum bicolor with 14 samples.

Results

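The dry stalk NAC gene (Sobic.006G147400) and MYB60 (Sobic.004G273800) are transcription factor genes of the sorghum stem, and both were found by identifier in the deposited expression values. They are 2 of 33415 loci named there. The names NAC and MYB60 are those by which both genes were selected. The values pair the identifiers with no product names.

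The plants were ICSV12012, a sweet sorghum (Sorghum bicolor) variety, and the RNA of their middle stem internode was sequenced in 14 libraries that form 7 groups of 2. The 4 stage groups, from floral initiation through booting and the milky stage to soft dough, grew in a fertilised soil bed and were watered regularly. The 3 drought groups grew in pots with 1 plant each, lost their water supply once the flag leaf was out and were cut at the booting stage, when the soil moisture meter read about 13% (D1), 7% (D2) or 2% (D3). All 7 groups are of this 1 variety, and no watered plants in pots are among them. The authors gave 1 value per locus and group in FPKM (fragments scaled to transcript length and library size), in a development table and a drought table that were quantified separately. No value has a replicate error, and no difference below has a test.

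The NAC gene lies at the D locus of sorghum, which separates dry, pithy stalks from juicy ones. In sorghum its protein is known to start the programmed death of the parenchyma cells that fill the stem, after which the pith holds air in place of sap, and juicy varieties carry alleles that have lost this function. The sources used here do not say which allele ICSV12012 carries. MYB60 belongs to the R2R3 MYB factors, a large family that controls plant secondary metabolism. Raising its level in sorghum is known to switch on genes of the monolignol pathway, which turns phenylalanine into the building blocks of lignin for the thick walls of xylem and fibre cells. Both genes thus bear on what a stem cell becomes, one by ending its life and the other by hardening its wall.

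Both genes stood as loci of a single gene in both tables, with no other named locus overlapping them. The NAC locus was placed on chromosome 6 from 50895748 to 50899172 in the development table and from 50895822 in the drought table. MYB60 was placed on chromosome 4 from 61765703 to 61767930 in the development table and from 61765783 in the drought table. The starts therefore differed by 74 bases for the NAC gene and by 80 bases for MYB60, while the ends were the same. The sources used here name no genome build.

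The NAC gene was near the bottom of the scale in the stage groups and had its highest level at intermediate soil moisture. It stood at 0.0245 FPKM at floral initiation, 0.120 at booting, 0.0470 at the milky stage and 0.0444 at soft dough. In the drought groups it stood at 1.57 FPKM in D1, 15.1 in D2 and 0.305 in D3. D2 was the high group, 9.65 times above D1, the next in order. All 3 drought values were above all 4 stage values, an order that 17.5% of the 18492 loci compared across the tables share.

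MYB60 was placed the other way between stages and drought groups, while D2, D1 and D3 had the same order for both genes. It stood at 1.24 FPKM at floral initiation, 1.63 at booting, 3.21 at the milky stage and 1.58 at soft dough, and at 0.321, 0.405 and 0.0841 FPKM in D1, D2 and D3. The milky stage was the high group, at 1.97 times booting, and D3 was the low group. All 3 drought values lay below all 4 stage values, as they did for 11.6% of the loci compared. Pot, water supply and table differ together between stages and drought groups, so their parts in both arrangements cannot be told apart. In RNA from whole internodes fewer cells of a type and less RNA per cell cannot be told apart either.

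**Figure D1:**
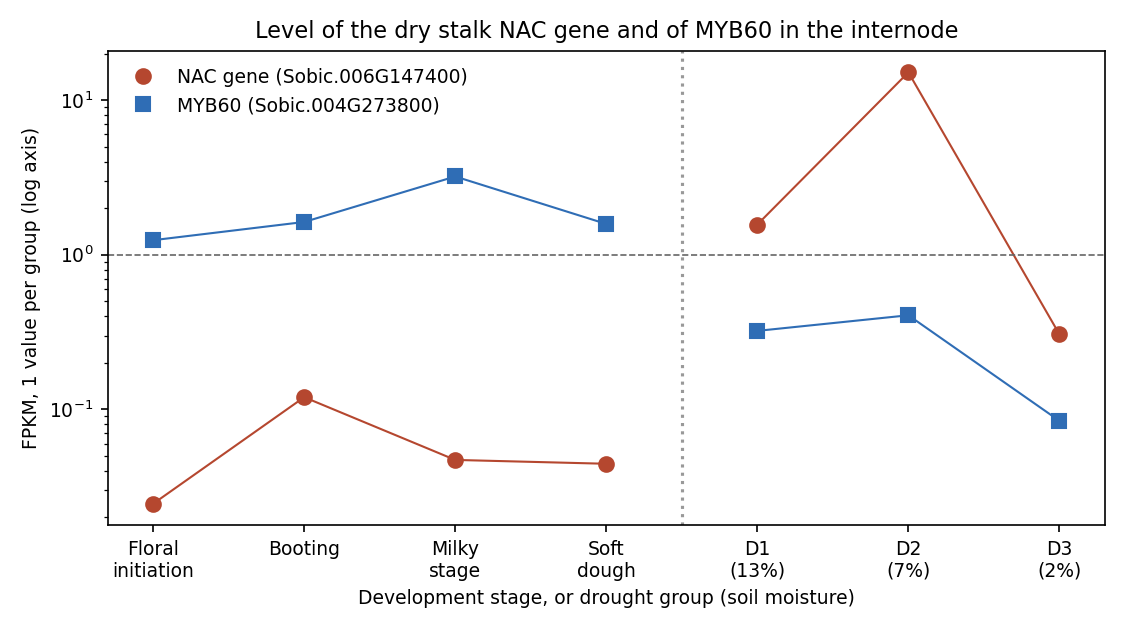
FPKM (log axis) of the NAC gene (circles) and MYB60 (squares) in the 4 stages and 3 drought groups, 1 authors' value per group and so no error bars; the dashed line is 1 FPKM and the dotted line separates the tables. The NAC gene reaches 15.1 FPKM in D2 and stays at or under 0.120 in the stages, while MYB60 is above 1 FPKM in every stage and below it in every drought group.

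The order of levels rests on single values, and some neighbours in it are close. For MYB60, booting was 1.03 times soft dough, soft dough 1.27 times floral initiation and D2 1.26 times D1. For the NAC gene, the milky stage was 1.06 times soft dough. The wider gaps were between D2 and D1 (9.65 times) and D1 and D3 (5.14 times) for the NAC gene, and between D1 and D3 (3.82 times) and floral initiation and D2 (3.06 times) for MYB60. Whether any of these gaps exceeds the spread between libraries cannot be seen from 1 value per group.

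Both genes are modest in the whole transcriptome. In D2 77.4% of the named loci had a lower FPKM than the NAC gene, against 53.6% in D1, 43.7% in D3 and between 30.7% (floral initiation) and 37.4% (booting) in the stages. For MYB60 the share of lower loci was 61.3% at the milky stage, between 50.3% and 54.4% in the other 3 stages and between 37.0% (D3) and 44.7% (D2) in the drought groups. Between 26.5% (D2) and 29.4% (soft dough) of the named loci are listed at 0. Both genes were above 0 in all 7 groups.

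The lowest of these values are close to the finest step the values show. Among short loci of 200 to 700 bases listed under reference identifiers, the smallest FPKM above 0 multiplied by the length in kilobases was between 0.0157 (floral initiation) and 0.0197 (booting). The NAC gene's FPKM multiplied by its locus span, which counts introns and so gives an upper limit, came to 5.35 such steps at floral initiation, 20.8 at booting, 9.12 at the milky stage and 8.17 at soft dough. In D2 the limit was 3095 steps. For MYB60 the limit was 9.23 steps in D3 and 176 to 405 in the stages. The stage values of the NAC gene and the D3 value of MYB60 are thus the coarsest of the 14.

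Changes below are differences of log2(FPKM + 1), and 1 on this scale is taken as 2-fold. The added 1 makes a change smaller than the FPKM ratio where levels are low. Loci were compared within a table if they reached 1 FPKM in some group of it. The NAC gene did so in the drought table and not in the development table, and MYB60 the reverse. Both were compared across the tables, where 1 FPKM in any of the 7 groups was enough.

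From D1 to D2 the NAC gene was higher by 2.65 on the log2 scale, from 1.57 to 15.1 FPKM. This is 51st from the highest among 17229 loci, of which 6.80% differed at least 2-fold in either direction. From D2 to D3 it was lower by 3.63, from 15.1 to 0.305 FPKM or 49.6 times, 15th from the lowest change, in a step where 9.77% of loci differed at least 2-fold. Between the ends of the drying series it did not reach 2-fold (-0.98), although 0.305 FPKM in D3 was 5.14 times below 1.57 in D1, and 11.3% of loci did. With 0.1 added in place of 1 this difference was -2.04.

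A margin of at least 2-fold in D2 over both other drought groups was found for 226 loci, or 1.31% of those compared, and the NAC gene was 18th among them by its margin of 2.65. Of these, 215 were named in both tables and 47 were below 1 FPKM in all 4 stages, and 42 of the 47 were also below 1 FPKM in D3. By its level in D2 the NAC gene was 4th of those 42. Only 4 of the 42 also reached 1 FPKM in D1, and the NAC gene was one of them. These counts follow the NAC gene's own pattern and were chosen after its values were seen.

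Against the watered booting plants, with tables quantified separately, the NAC gene was higher by 1.20 in D1 and by 3.85 in D2, and by 0.22 in D3. In FPKM these are 13.1, 126 and 2.55 times the booting value of 0.120, a value of at most 20.8 of the smallest steps. At least 2-fold differences from booting were found for 26.1% of loci in D1, 26.1% in D2 and 29.8% in D3. The change in D2 was 40th from the highest of 18492. The D1 change falls short of 2-fold with 5 added to FPKM (0.36).

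MYB60 did not reach 2-fold on the log2 scale between any pair of stages compared. In FPKM the milky stage was 1.97 times booting and 2.03 times soft dough. The milky stage (3.21 FPKM) was not compared with floral initiation, the lowest stage (1.24 FPKM). On the log2 scale MYB60 was higher by 0.23 from floral initiation to booting and by 0.68 from booting to the milky stage. From the milky stage to soft dough it was lower by 0.70. At least 2-fold differences in these steps were found for 29.3%, 24.9% and 17.4% of the 18367 loci. Soft dough differed from booting by -0.03 (21.0% of loci at least 2-fold), or by 0.12 with quantile normalization, and from floral initiation by 0.20 (30.5%). The milky stage was the highest stage for 25.4% of the loci compared, so a highest value there is common.

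Against booting, MYB60 was lower by 0.99 in D1, 0.90 in D2 and 1.28 in D3, and the D3 change alone passed 2-fold. In FPKM these are 5.06, 4.01 and 19.4 times lower than 1.63. The D1 and D2 changes lie just inside the threshold and passed it with 0.1 added (-2.04 and -1.77), while the D3 change no longer passed with 5 added (-0.38). Between 10.05% (D3) and 14.5% (D2) of loci had a lower change than MYB60. Within the drought table MYB60 stayed below 1 FPKM, and its differences of 0.09 from D1 to D2 and -0.37 from D2 to D3 were not counted.

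**Figure D2:**
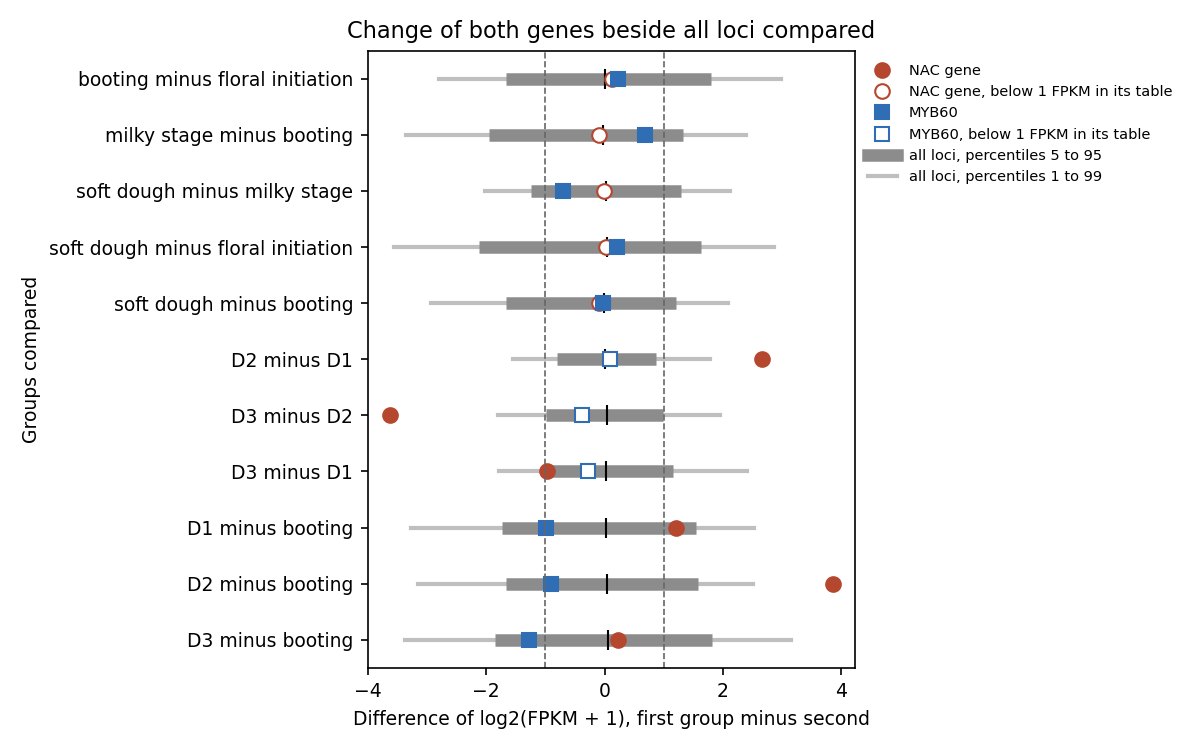
Difference of log2(FPKM + 1) of the NAC gene (circles) and MYB60 (squares) for 11 pairs of groups, over grey bars for all loci compared (thick, percentiles 5 to 95; thin, percentiles 1 to 99; tick, median); open symbols are below 1 FPKM throughout the table and were not counted, and dashed lines are 2-fold. The NAC gene lies outside the thin bar for D2 against D1 (2.65), D3 against D2 (-3.63) and D2 against booting (3.85), and MYB60 lies inside the thick bar in all 11.

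The loci next to the NAC gene on chromosome 6 differed less than it did from D1 to D2 and from D2 to D3. Sobic.006G147450, which begins 3388 bases after the NAC locus, was at 0.136, 0.231 and 1.08 FPKM in D1, D2 and D3 and had its highest value in D3. Sobic.006G147500 was at 1.03, 1.56 and 1.43 FPKM, and the joined locus of Sobic.006G147600 and Sobic.006G147700 at 36.6, 73.2 and 63.1, a D2 change of 0.98 from D1. Both were highest in D2 among the drought groups, as the NAC gene was, and the joined locus also among all 7. On the other side Sobic.006G147350 was at 0.0243 FPKM in D1 and listed at 0 in D2 and D3. Sobic.006G147300 was at 62.0, 83.6 and 119.96 FPKM and Sobic.006G147200 at 80.7, 54.2 and 119.95. None of these 6 loci reached 2-fold from D1 to D2, a step in which 6.80% of all loci did. From D2 to D3, where 9.77% did, only Sobic.006G147200 reached it, by 1.13, in the opposite direction to the NAC gene. With so few loci these counts are near those shares. Sobic.006G147350 was below 1 FPKM in every group and could not be counted.

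Around MYB60 on chromosome 4 the picture was equally mixed. Sobic.004G273900 and Sobic.004G274000, which begin 2671 and 4609 bases after it, are listed at 0 in all 4 stages. Sobic.004G274100 was at 1.30, 2.83, 2.30 and 3.95 FPKM in the 4 stages in order and at 7.22, 11.2 and 6.87 in D1, D2 and D3. It was thus higher in each drought group than in any stage, the reverse of MYB60. Sobic.004G273500, Sobic.004G273550 and Sobic.004G273600 share 1 span on the other side, so that their fragments may not be separable. Of these, Sobic.004G273500 was at 15.7 FPKM at floral initiation and 1.10 at booting, and at 10.9, 2.11 and 4.83 in the drought groups. Its change from D1 to D2 was -1.93. MYB60 differed by 0.09 in that step, and at 0.321 FPKM in D1 it could be lower by 0.40 at most.

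**Figure D3:**
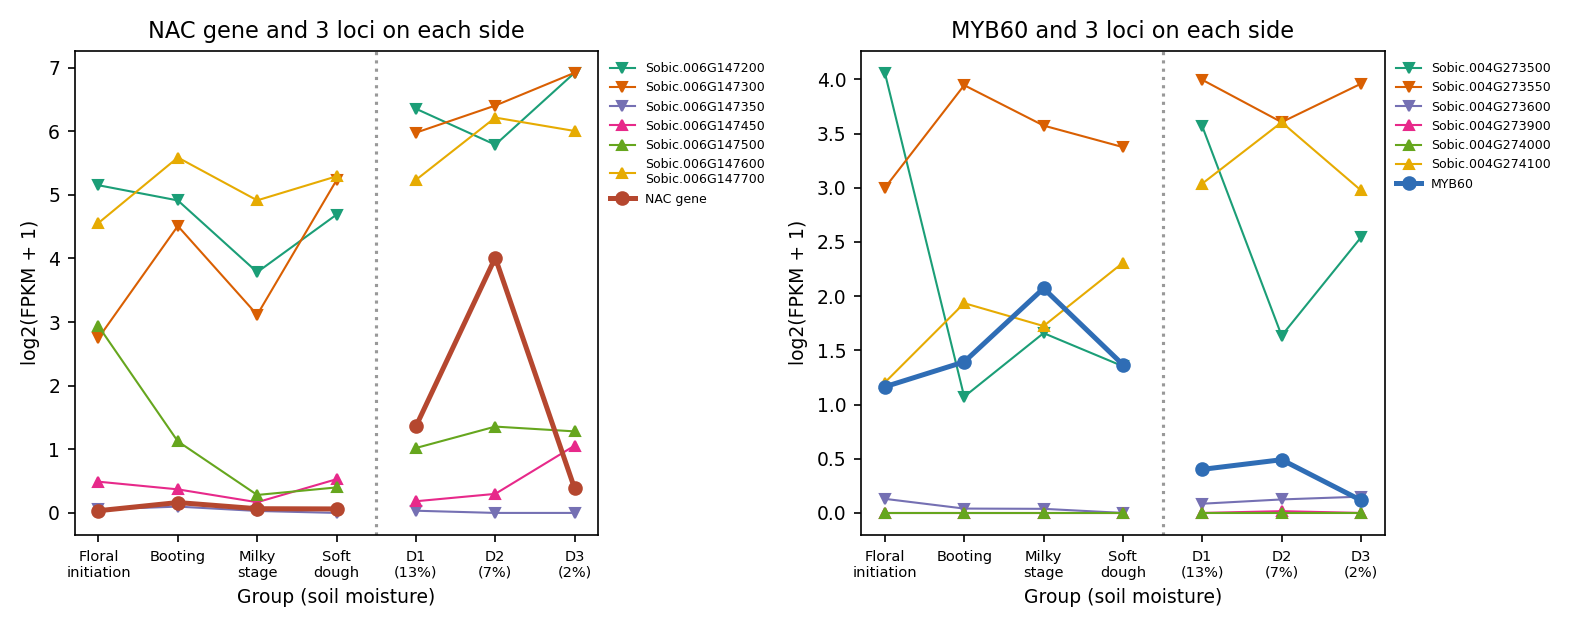
Level as log2(FPKM + 1) in the 7 groups for the NAC gene (left) and MYB60 (right), each with the 3 named loci on either side (triangles down, before it; triangles up, after it). The 6 loci beside the NAC gene have D2 changes from D1 between -0.57 and 0.98, against 2.65 for the NAC gene.

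The loci most like each gene were ranked by Pearson's r of log2(FPKM + 1) over the 7 groups, a description of 7 points that share library preparation and, within a table, quantification. Among 17579 loci of a single gene, 5 reached an r of 0.99 with the NAC gene and 27 reached 0.95. The 5 were Sobic.002G137000 (r 0.998), Sobic.002G410200 (0.996), Sobic.009G246000 (0.996), Sobic.006G153700 (0.993) and Sobic.009G236400 (0.9904). In D2 they stood at 1.59, 1.37, 32.9, 2.68 and 115 FPKM in that order. Loci listed at 0 in some group were kept in this ranking. Sobic.002G410200 is listed at 0 in 4 of the 7 groups, and Sobic.006G153700 and Sobic.009G236400 in 2 each. Spearman's rho over the same groups ranged from 0.50 for Sobic.009G246000 to 0.99 for Sobic.006G153700.

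For MYB60, 16842 loci of a single gene and above 0 in all groups were ranked. The closest were Sobic.001G441800 (r 0.995), Sobic.006G264500 (0.991), Sobic.009G032600 (0.991), Sobic.002G379600 (0.988) and Sobic.004G336300 (0.986). All 5 had their highest value at the milky stage and were lower in every drought group than in every stage. These 5 were chosen by likeness over the same groups, so this shape is no separate result. Their levels were above that of MYB60, for example 420 FPKM at the milky stage and 80.6, 92.8 and 52.6 in D1, D2 and D3 for Sobic.009G032600. Of the 16842 loci, 112 reached an r of at least 0.95 with MYB60. The NAC gene and MYB60 had an r of -0.50 with each other.

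**Figure D4:**
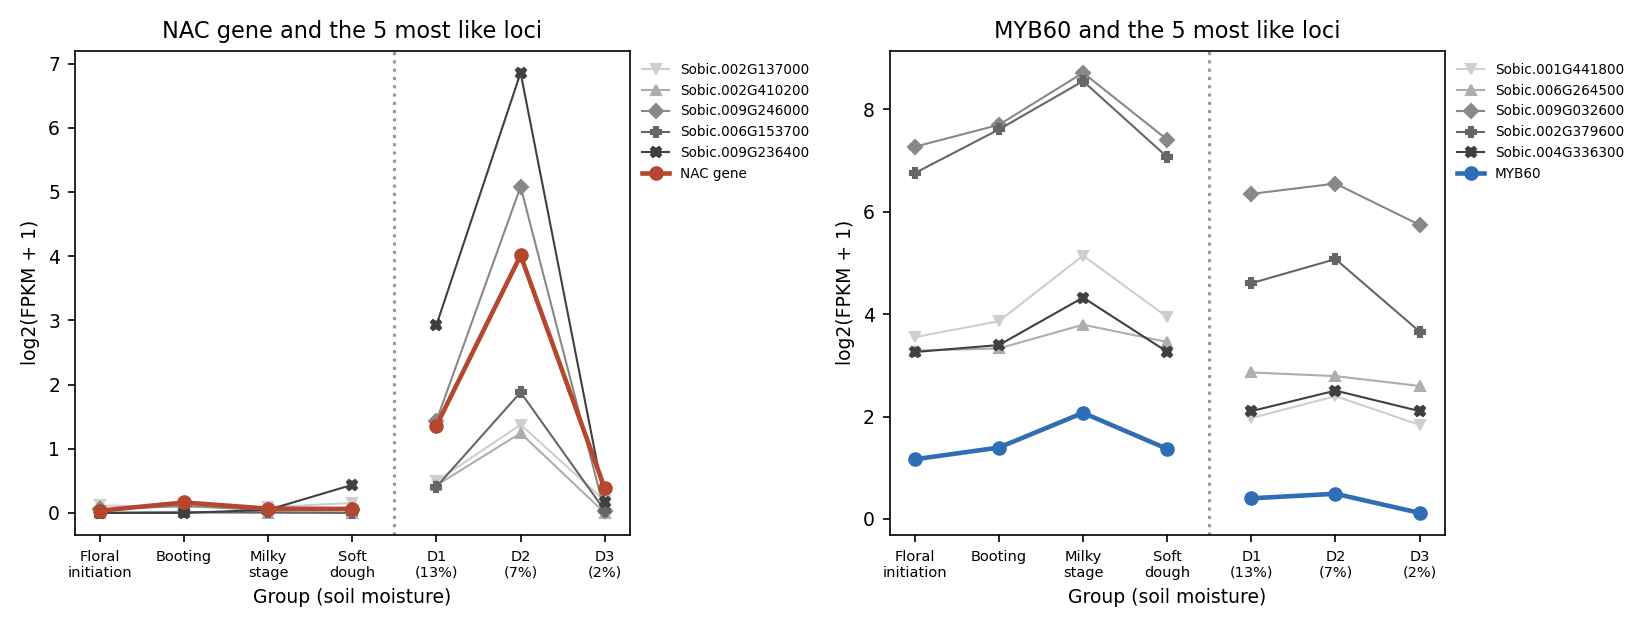
Level as log2(FPKM + 1) in the 7 groups for the NAC gene (left) and MYB60 (right), each with the 5 loci of highest Pearson's r over these groups (grey). Loci like the NAC gene share a single peak in D2 at levels from 1.37 to 115 FPKM, and loci like MYB60 share the high milky stage and the low drought groups. Both shapes come with the choice by likeness over these groups.

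The pathway that MYB60 is known to act on was followed through 10 monolignol loci, named here from published sorghum genetics as recalled. Neither the deposited values nor the reference table annotate them. All 10 reached 1 FPKM in both tables and stood above MYB60 in every group. The lowest of them, Sobic.001G196300, was at 1.41 FPKM in D2 against 0.405 for MYB60, and at 6.94 against 1.58 at soft dough. The summed level of the 10 was 5958 FPKM at floral initiation, 3872 at booting, 1637 at the milky stage and 1064 at soft dough. It was 805, 927 and 443 FPKM in D1, D2 and D3. At floral initiation much of this sum was 1 locus, Sobic.004G220300, at 3728 FPKM. At booting it was at 1217 FPKM and Sobic.007G047300 at 1248, and in D1 at 232 against 276. In D2 Sobic.004G220300 was the higher of the pair, at 423 against 231. The highest drought value was in D2 for 3 of the 10, and the share of all loci for which it was so was not counted. The highest stage was booting for 6 of the 10, floral initiation for 3 and the milky stage, where MYB60 was highest, for 1. Of all loci 25.4% were highest at the milky stage, and the shares for the other stages were not counted.

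Across the stages the median of the monolignol loci and MYB60 differed in direction from booting to the milky stage and had the same direction in the steps before and after. From booting to soft dough, when MYB60 differed by -0.03, all 10 were at least 2-fold lower, with a median change of -1.76 against -0.01 over all loci, of which 21.0% differed that much in either direction. The widest was Sobic.007G141200 (cinnamoyl-CoA reductase, which makes the monolignol aldehydes), at 237 FPKM at booting and 32.5 at soft dough (-2.83). Sobic.004G220300 (phenylalanine ammonia-lyase, the entry enzyme) was at 3728 FPKM at floral initiation, 1217 at booting, 216 at the milky stage and 276 at soft dough, and its change over the whole series was -3.75. From booting to the milky stage, when MYB60 was higher by 0.68, 4 of 10 were at least 2-fold lower and none was higher by that much, beside 24.9% of all loci in either direction. From the milky stage to soft dough, when MYB60 was lower by 0.70, 6 were lower (17.4% of all loci in either direction), and from floral initiation to soft dough 8 (30.5%). Sobic.002G126600 (cinnamate 4-hydroxylase, the second enzyme) was at 27.7 FPKM at floral initiation and 80.7 at booting (1.51), the only one at least 2-fold higher in that step, in which 2 were lower. These 3 of 10 are near the 29.3% of all loci. The median in that step was 0.22 and MYB60 differed by 0.23, and the median was -0.25 with quantile normalization.

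In the drought groups the monolignol loci were lower than at booting, as MYB60 was. All 10 were at least 2-fold lower in D1 and in D2, and 9 in D3, with median changes of -2.28, -2.28 and -3.05 beside 0.03, 0.03 and 0.05 over all loci. Of all loci 26.1%, 26.1% and 29.8% differed that much in either direction. With quantile normalization 9 of the 10 were lower by that much in D2. In D2 the widest changes were those of Sobic.001G196300 (ferulate 5-hydroxylase, which leads to syringyl lignin), at 1.41 FPKM against 32.7 (-3.80), and Sobic.010G052200 (caffeoyl-CoA O-methyltransferase), at 50.3 against 499 (-3.29). Sobic.009G181800 (coumaroyl shikimate 3-hydroxylase) was at 10.2 against 103 FPKM (-3.22). Sobic.004G212300 (hydroxycinnamoyltransferase) was the locus short of 2-fold in D3 (-0.87). For 6 of the 10 every drought value lay below every stage value, beside 11.6% of all loci.

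Within the drying series the monolignol loci that passed 2-fold were all lower in the drier group. From D1 to D2 1 of 10 was lower, Sobic.001G196300 (6.56 to 1.41 FPKM, -1.65), near the 6.80% of all loci that differed in either direction. From D2 to D3 2 were lower (9.77% of all loci) and from D1 to D3 4 (11.3%), with medians of -0.38 and -0.72 beside 0.04 and 0.03 over all loci. MYB60 and 8 of the 10 had their lowest drought value in D3, and the share of all loci that did was not counted. Over the 7 groups r with MYB60 ranged from 0.28 (Sobic.007G141200) to 0.88 (Sobic.010G052200). With the NAC gene all 10 had a negative r, from -0.61 to -0.11. Against booting the NAC gene was higher and these loci lower in every drought group, so the sign is no separate result. The share of all loci with such an r, to either gene, was not counted.

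Cellulose synthase loci of the secondary wall mark xylem and fibre cells as they thicken. They were lower in the drought groups than at booting by more than MYB60 was. In D2 they were 18.4 to 24.7 times lower in FPKM, against 4.01 times for MYB60. On the log2 scale MYB60, at 1.63 FPKM at booting, could be lower by 1.39 at most. These 3 loci, also named from recall, are Sobic.001G224300, Sobic.002G205500 and Sobic.003G296400. Their summed level was 502 FPKM at floral initiation, 208 at booting, 110 at the milky stage and 61.8 at soft dough, and 4.32, 10.3 and 2.78 FPKM in D1, D2 and D3. All 3 were at least 2-fold lower than at booting in each drought group, with median changes of -4.87, -3.96 and -5.25 beside 0.03, 0.03 and 0.05 over all loci, of which 26.1%, 26.1% and 29.8% differed that much. In the stages all 3 had their highest value at floral initiation, where MYB60 was lowest of the 4. In the drought groups all 3 were highest in D2 and lowest in D3, the order that MYB60 also had. From D1 to D2 all 3, and MYB60, were under 2-fold. The shares of all loci highest at floral initiation, or with this order in the drought groups, were not counted. The part of these cell markers in the levels of MYB60 was not tested.

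Other tissue markers, also named from recall, set leaf and storage cells beside both genes. Sobic.010G160700, the phosphoenolpyruvate carboxylase of leaf mesophyll, was at most 0.110 FPKM in any group. Sobic.009G132900 (pyruvate phosphate dikinase), also a leaf enzyme, was at 1.98 FPKM at floral initiation, 17.6 at booting, 11.2 at the milky stage and 31.0 at soft dough, and at 47.0, 34.6 and 12.3 in D1, D2 and D3. From D2 to D3, when the NAC gene was lower by 3.63, it was lower by 1.42. Sobic.004G099300, a sugar transporter of the vacuole membrane in storage parenchyma, was between 39.2 FPKM at booting and 209 at soft dough, and at 138, 90.3 and 98.5 in D1, D2 and D3. The part of leaf or storage cells in the levels of the NAC gene and MYB60 was not tested.

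**Figure D5:**
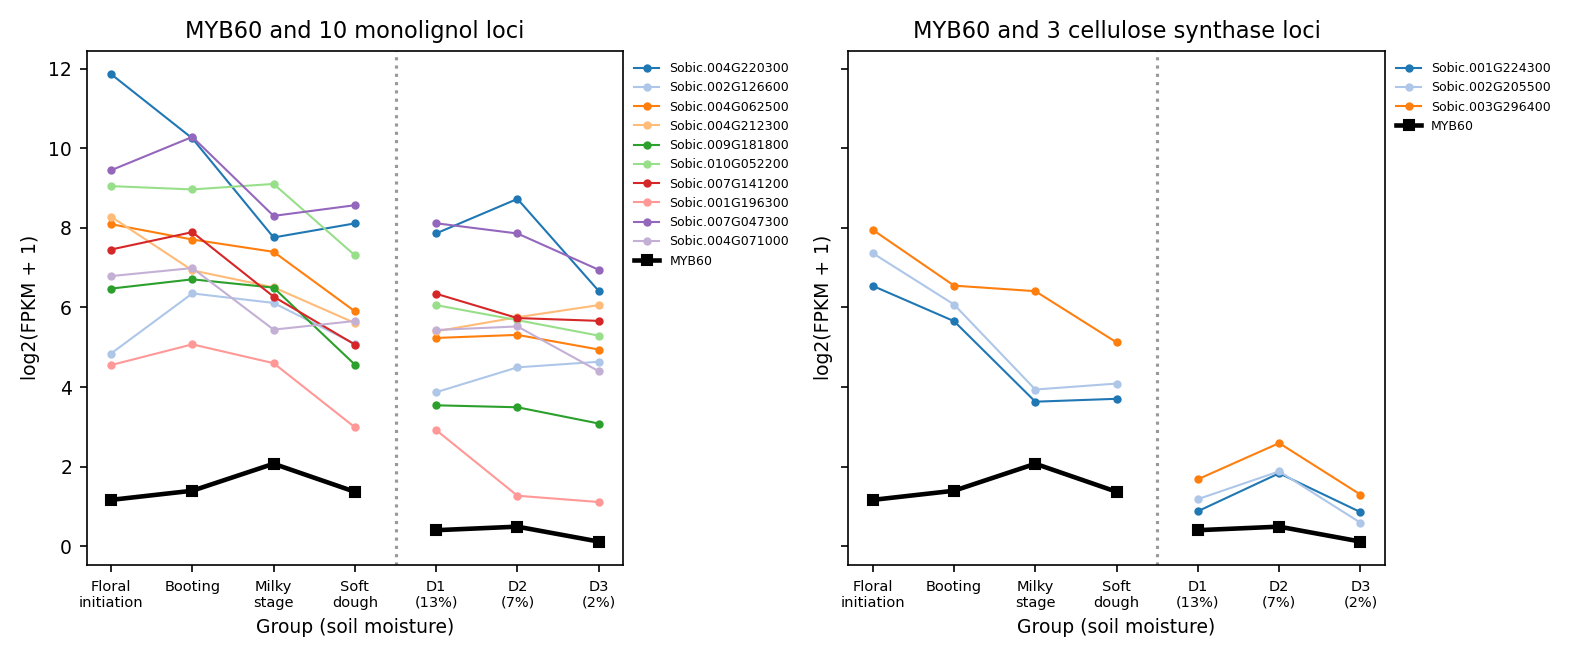
Level as log2(FPKM + 1) in the 7 groups for MYB60 (black squares) with 10 monolignol loci (left) and 3 cellulose synthase loci of the secondary wall (right). MYB60 is highest at the milky stage while most of the others are highest at floral initiation or booting, and the 3 cellulose synthase loci lie between 0.506 and 5.03 FPKM in the drought groups.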

How the data were processed

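The authors deposited FPKM, per the file headers, with 1 value per locus and group. The sources used here do not say how both libraries of a group were joined into it. HISAT2 2.0.5, Bowtie2 2.2.9, cutadapt 1.8.1 and Cuffdiff are named in the processing list, per the submitters' processing notes, with no build or annotation. Per the labels' protocols a stranded total RNA kit was used. Depth is unknown.

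Repeated entries were used once, leaving 32752 named development and 32705 drought loci; 32042 names occur in both tables. Of the FPKM columns, 0 belong to other samples. A locus is called at a difference of at least 1 in log2(FPKM + 1). No test was possible, so limma, planned for values per library, was not run.

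Members and lists were chosen with earlier results of these data known. Named were both members, the 5 loci most like each, the 3 nearest loci on each side and, per list, those with the widest differences. Lists defined by product name (laccases, enzymes of programmed cell death, NAC and MYB families, ribulose bisphosphate carboxylase, kafirins) could not be formed, since the reference table, of assembly NCBIv3, matched 0 identifiers. Protein and promoter sequences were not used here. Alternatives were offsets of 0.1 and 5, no minimum or 5 FPKM, median-of-ratios scaling and quantile normalization, and, chosen after seeing the data, drought FPKM scaled to the development span and counts without loci listed at 0. Python 3.11.15 with pandas 2.3.3 was used. The counting step was tested on an altered copy of the booting values and the likeness step on random numbers.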

Additional observations from a re-analysis of the deposited data

How the results depend on the processing

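No paired analysis was possible because each group has 1 deposited value. For the same reason no library could be left out. Of 62 alternative values for the changes of the NAC gene and MYB60 under other offsets and scalings, 56 stayed on the same side of 2-fold. The sign turned in 1 case, MYB60 at soft dough against booting (-0.03, or 0.12 with quantile normalization), which is under 2-fold in both. With an offset of 0.1 the differences past 2-fold came to include MYB60 in D1 (-2.04) and D2 (-1.77) against booting, and the NAC gene in D3 against D1 (-2.04). With an offset of 5 the NAC gene in D1 (0.36) and MYB60 in D3 (-0.38) against booting no longer reached it. MYB60 in D1 also passed with drought FPKM scaled to the development span (-1.004), an alternative chosen after seeing the data. MYB60 has no value at a minimum of 5 FPKM, which it never reached.

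Of all loci, an offset of 5 left 3064 at least 2-fold different from floral initiation to booting, 2319 from booting to the milky stage, 1581 from there to soft dough, 3134 from floral initiation to soft dough and 1828 from booting to soft dough. It left 445 from D1 to D2, 720 from D2 to D3, 884 from D1 to D3, and 2562, 2536 and 3073 in D1, D2 and D3 against booting. An offset of 0.1 gave 1909 from D1 to D2 and 2571 from D2 to D3.

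Of the 10 monolignol loci, an offset of 5 left 0 past 2-fold from D1 to D2, 1 from D2 to D3 and 2 from D1 to D3. Of the 3 cellulose synthase loci, an offset of 0.1 took 3 past 2-fold from D1 to D2 and 1 from D1 to D3. From D2 to D3 a minimum of 5 FPKM left 1 and an offset of 5 left 0. Which loci were most like each gene depended on the measure. Of the 5 most like the NAC gene, 3 remained among the 5 closest with an offset of 0.1 and 0 by Spearman's rho, and of those most like MYB60, 2 remained in either case. The cause was not tested in any of these.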
